A study of Mus musculus with 4 samples.

Results

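Reserve and broad progenitor stem cell markers were followed in mouse small intestinal organoids that had lost Yap or carried an excess of it. The set holds 7 genes, Bmi1, Hopx, Lrig1, Tert, Prom1, Cd44 and Mex3a, of 22632 in the deposited expression table. They were chosen by name, and each symbol had 1 row. Organoids are epithelial cultures grown in Matrigel from isolated crypts, here whole crypts harvested 24 hours after seeding in medium with EGF, Noggin and R-spondin. There were 4 libraries, 1 for each group. Yap-/- organoids came from Yapfl/fl;VillinCre mice, in which a Villin-driven Cre, active in the gut epithelium, deletes both floxed copies of Yap. Their counterpart, Yap+/-, came from Yap+/fl;VillinCre mice, so it carried the same Cre and had itself lost 1 copy. YapTg organoids carried a doxycycline-inducible wild-type Yap transgene under a Cre-driven reverse tetracycline transactivator and were grown with doxycycline (1.5 mg/ml as the labels state it) or without it. The labels do not name the Cre of the YapTg line, and no library combined the drug with organoids that lack the transgene, so effects of doxycycline and of YAP cannot be told apart. Ages, sexes and numbers of animals are not given.

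Crypt base columnar cells marked by Lgr5 divide daily and maintain the intestinal epithelium. Other markers were proposed for slowly dividing reserve cells that sit just above the crypt base and refill the stem cell compartment after injury. Bmi1, Hopx, Lrig1, Tert and a Mex3a-positive subset of Lgr5 cells were described in this way, while Prom1 and Cd44 mark a broader zone of stem and progenitor cells. RNA of several of these genes is also found in Lgr5 cells and elsewhere along the crypt. YAP, the co-activator restrained by the Hippo pathway, works through TEAD DNA-binding proteins, and in the intestine it is known for its part in regeneration after injury.

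The stretch of 250 bases before the annotated start is shown for the members on which the results turn, namely Hopx, Tert and Mex3a, which were furthest lower with induction, and Bmi1, the member that was not lower. These members were picked for their values. The sequences are RefSeq's for the GRCm38.p6 build, written 5′ to 3′ on the strand of the gene, and capitals mark the letters GGAATG, the core recognised by TEAD proteins.

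Hopx, upstream start (chr5:77115124-77115373, minus strand): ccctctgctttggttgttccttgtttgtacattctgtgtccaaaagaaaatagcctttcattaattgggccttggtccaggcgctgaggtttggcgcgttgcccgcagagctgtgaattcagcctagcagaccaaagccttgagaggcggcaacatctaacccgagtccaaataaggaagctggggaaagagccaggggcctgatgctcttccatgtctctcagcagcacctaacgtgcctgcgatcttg

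Hopx, downstream start (chr5:77095268-77095517, minus strand): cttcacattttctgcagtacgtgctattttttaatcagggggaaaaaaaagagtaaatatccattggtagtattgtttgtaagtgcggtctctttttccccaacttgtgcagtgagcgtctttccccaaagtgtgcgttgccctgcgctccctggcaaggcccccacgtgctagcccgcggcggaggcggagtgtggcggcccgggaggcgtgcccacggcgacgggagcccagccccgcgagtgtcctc

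Tert (chr13:73626661-73626910, plus strand): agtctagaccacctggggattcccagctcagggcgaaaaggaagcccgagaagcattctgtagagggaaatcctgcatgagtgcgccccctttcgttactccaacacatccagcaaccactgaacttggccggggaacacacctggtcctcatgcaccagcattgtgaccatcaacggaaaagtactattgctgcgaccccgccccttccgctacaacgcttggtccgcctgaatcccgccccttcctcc

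Mex3a (chr3:88531696-88531945, plus strand): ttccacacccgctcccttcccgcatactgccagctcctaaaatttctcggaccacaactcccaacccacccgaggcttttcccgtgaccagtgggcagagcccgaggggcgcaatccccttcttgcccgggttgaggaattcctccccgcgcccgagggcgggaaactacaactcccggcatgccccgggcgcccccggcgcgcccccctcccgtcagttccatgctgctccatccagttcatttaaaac

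Bmi1 (chr2:18676768-18677017, plus strand): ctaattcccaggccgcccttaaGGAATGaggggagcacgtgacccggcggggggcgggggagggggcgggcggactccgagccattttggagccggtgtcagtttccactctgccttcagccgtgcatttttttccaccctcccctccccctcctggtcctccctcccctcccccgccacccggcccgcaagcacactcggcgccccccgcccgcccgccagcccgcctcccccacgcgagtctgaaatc

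RefSeq lists 9 starts for the 7 members, with 2 each for Hopx and Prom1. GGAATG, sought on both strands, was in 1 of these 9 windows. That was the Bmi1 window, 228 bases before the start. Of all 32851 promoter windows of the same length, 12.6% held it. The letters CTTTGA, a core bound by TCF proteins of the Wnt pathway, were likewise sought on both strands. They were in 0 of the 9 windows, so no overlap of the motifs arose, and in 13.8% of all windows. These matches describe letters in a window, and nothing about binding was measured.

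The library totals behind the deposited RPKM values (reads scaled to the length of a gene and to the depth of its library) ran from 44934170 to 75269003 reads, and between 10530 and 10722 genes per library reached 1 RPKM. Yap1 followed the labels, at 3.35 RPKM in Yap-/- against 16.7 RPKM in Yap+/- organoids, and at 1039 RPKM with against 25.1 RPKM without doxycycline. Epithelial markers were high in every library, with Epcam between 335 and 394 RPKM. Not all were as steady as Epcam. The sum over the 7 listed was 4108 RPKM in the doxycycline-treated library, where its untreated counterpart had 1794 RPKM. In that pair 2 of the 7 were higher and 1 lower by the 2-fold rule given below, and with loss of Yap 0 passed it. Markers of other tissues were low but not all absent. The 8 stromal markers summed to between 0.489 and 3.61 RPKM, most of it Vim, and Col3a1 and Dcn were listed at 0 in all 4 libraries. Vim was at 0.381 RPKM with and 2.26 RPKM without doxycycline, past the 2-fold rule given below. The 7 immune markers summed to 4.77 RPKM in Yap-/- against 4.17 RPKM in Yap+/- organoids, and to 10.3 RPKM with against 9.44 RPKM without doxycycline. Csf1r and Cd52 reached 1 RPKM in every library and Cd74 in the YapTg libraries, while Ptprc was at 0.153 to 0.256 RPKM. The 4 endothelial markers summed to at most 0.233 RPKM, with Cdh5 listed at 0 throughout. The part of these markers in the members' ratios was not tested. Replicates are lacking, since each group has 1 library, so differences are described without a test. Intervals are 95% intervals of counting error from 204 to 9030 reads per member and library.

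All 7 members were expressed, and they spanned a wide range of levels. Hopx was the most abundant member in each of the 4 libraries, Lrig1 and Prom1 came next, Cd44 was in the fourth place, and Mex3a had the lowest value in each. In the Yap+/- library Lrig1 at 20.5 RPKM (interval 20.0 to 21.0) and Prom1 at 20.2 RPKM (19.6 to 20.7) had intervals that overlapped. The same held in the doxycycline-treated library for Tert at 0.791 RPKM (0.686 to 0.907) and Mex3a at 0.656 RPKM (0.579 to 0.741). Tert and Bmi1 changed places. Tert was above Bmi1 in Yap-/- organoids and below it in the other 3 libraries.

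**Figure D1:**
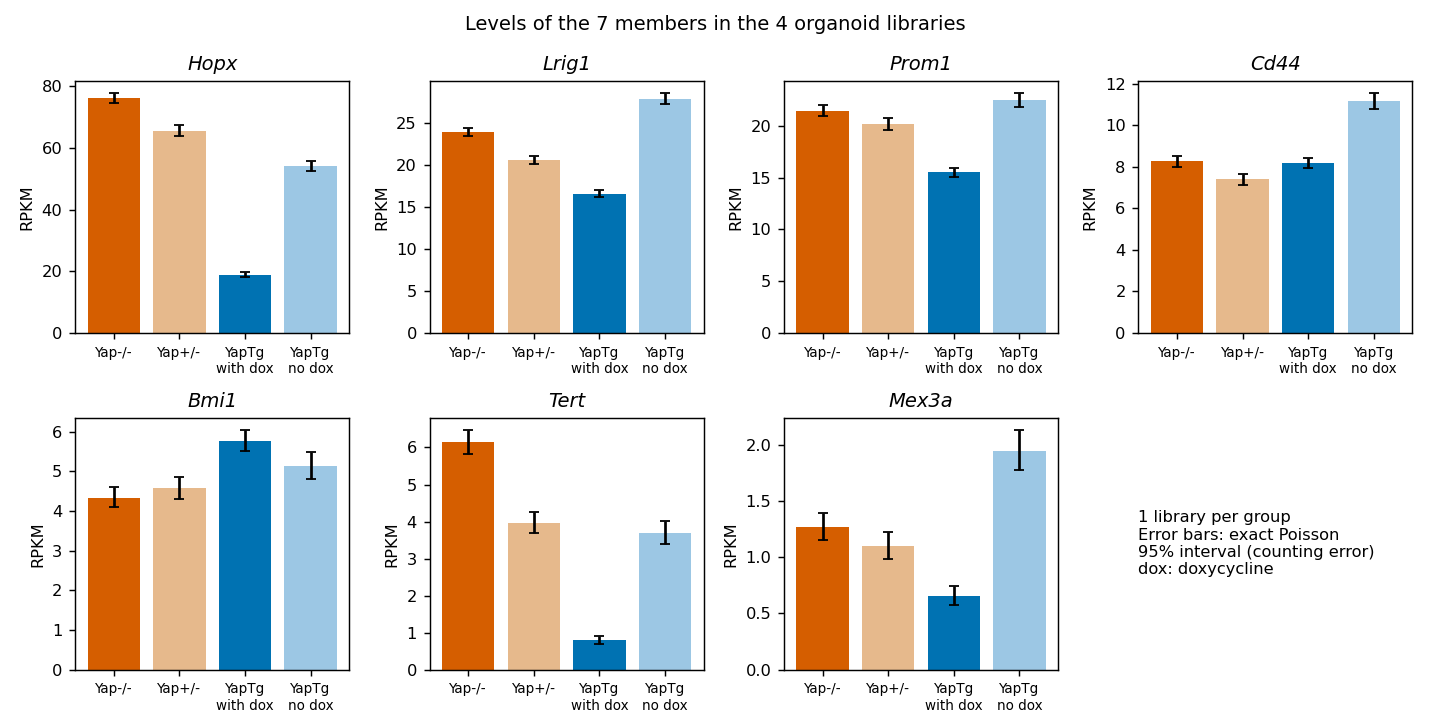
RPKM of each member (vertical axes, each from 0 and with its own scale) in the Yap-/-, Yap+/-, doxycycline-treated YapTg and untreated YapTg libraries, with exact Poisson 95% intervals of counting error as error bars and 1 library per bar. Hopx, Lrig1, Prom1, Tert and Mex3a are lowest in the doxycycline-treated YapTg library, and Bmi1 is highest there.

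The first pair addresses how the markers stand when the gene is lost, 24 hours into culture. No member differed by 2-fold. Slightly higher levels in Yap-/- than in Yap+/- organoids were seen for 6 of the 7, with Tert furthest apart at 1.55-fold and the other 5 between 1.06-fold and 1.16-fold, while Bmi1 was 1.06-fold lower. The call required a 2-fold ratio of RPKM plus 1 and at least 1 RPKM (the floor) in whichever library was higher. By this rule 0 members were higher and 0 lower, where 0.336% of 10710 genes at the floor were higher and 0.570% were lower. The median log2 ratio of RPKM plus 1 was 0.14 for the members and 0.05 for all genes at the floor. More of all genes thus lay above 0 than below, the direction of the 6 members. Counting intervals excluded equal levels for 6 members, all higher. The reads are deep enough that this held for many genes, with 38.7% of all genes higher and 15.8% lower by the same criterion.

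The doxycycline pair addresses the opposite change. Here 6 of 7 members were lower with doxycycline than without, and Bmi1 was 1.12-fold higher. Tert was 4.67-fold lower, Mex3a 2.97-fold, Hopx 2.87-fold, Lrig1 1.68-fold, Prom1 1.45-fold and Cd44 1.36-fold, as ratios of RPKM. By the rule above 2 members, Hopx and Tert, were lower and 0 higher, against 5.80% of 11108 genes lower and 5.85% higher. With 7 genes chosen by name, these shares are given side by side and nothing particular to the set is drawn from them. Mex3a missed the rule because the added pseudocount shrinks the ratio of a gene at 1 to 2 RPKM, and with a pseudocount of 0.1 it was the third member past it. At that pseudocount 915 of the 11108 genes were lower and 838 higher. The median log2 ratio of RPKM plus 1 was -0.72 for the members and -0.04 for all genes at the floor. More of all genes thus lay below 0 than above, the direction of the 6 members. Counting intervals excluded equal levels for all 7 members, 6 lower and 1 higher, against 45.0% of all genes lower and 36.6% higher. All 7 members reached the floor in each pair, Tert and Mex3a in this one through the untreated library alone. In bulk RNA fewer cells that carry a transcript and less transcript per cell cannot be told apart.

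**Figure D2:**
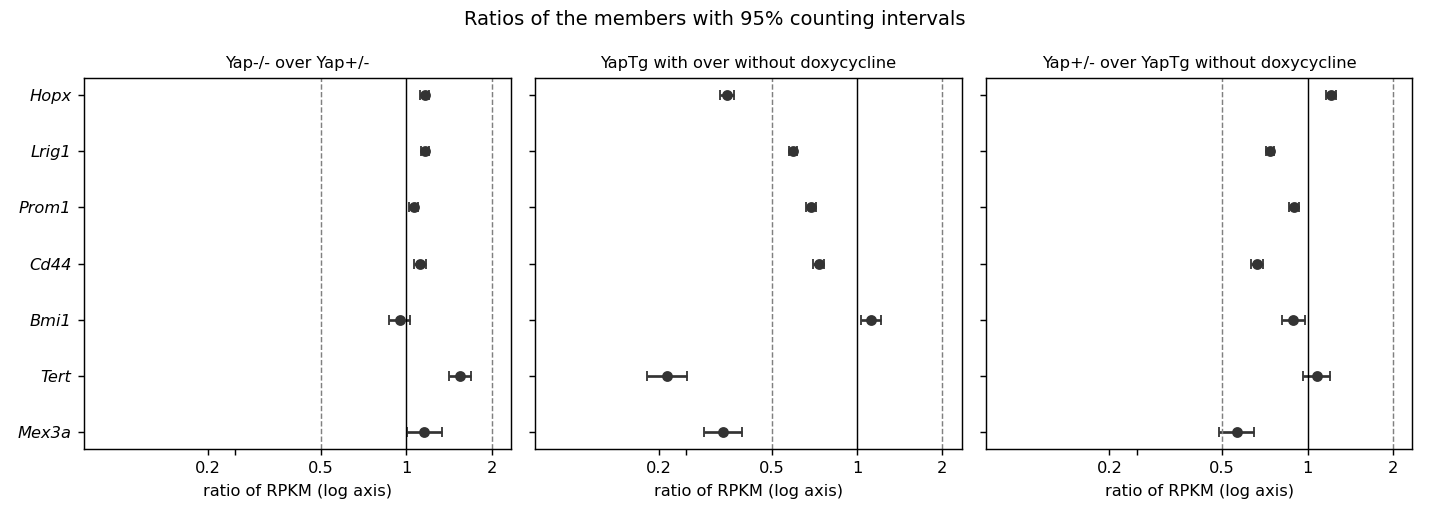
Ratio of RPKM (horizontal log axis) for each member in the 3 pairs of libraries named above the panels, with 95% counting intervals as bars, a solid line at equal levels and dashed lines at 0.5 and 2. With loss of Yap all ratios lie between 0.948 and 1.55, and with doxycycline they reach down to 0.214 for Tert.

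The 2 comparison libraries, Yap+/- and untreated YapTg, were set against each other as a yardstick. They come from different mouse lines, and each also serves in 1 of the other pairs. Yap1 itself differed between them, at 16.7 RPKM in Yap+/- and 25.1 RPKM in untreated YapTg organoids, 1.50-fold lower in Yap+/- (interval 1.44 to 1.57). The yardstick is thus not free of a difference in Yap. By the 2-fold rule 0 members were higher and 0 lower, against 1.11% and 0.726% of 10883 genes, or 121 and 79 genes. After median-ratio scaling the split of all genes was 171 and 62. The median of all genes was -0.11 in this pair and moved to 0.01 with that scaling. The member median of -0.15 was thus close to that of all genes. The largest gaps were a log2 ratio of RPKM plus 1 of -0.54 for Cd44 and -0.49 for Mex3a, and both were larger in size than the log2 ratios of these genes with loss of Yap. The same held for Lrig1 (-0.42 against 0.21 with loss), Hopx (0.27 against 0.21), Prom1 (-0.15 against 0.08) and Bmi1 (-0.14 against -0.06). With median-ratio scaling it no longer held for Prom1 (-0.017 against 0.040) and Bmi1 (-0.023 against -0.102). With upper-quartile scaling it did not hold for Bmi1 (-0.048 against -0.098). Without scaling, Tert had the smaller gap here (0.08 against 0.52). Counting intervals excluded equal levels for 6 members, 5 of them lower and Hopx higher, against 51.5% of all genes lower and 23.1% higher.

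Hopx (ENSMUSG00000059325, chromosome 5) encodes a small homeodomain protein that does not bind DNA. Its level was 76.0 RPKM in Yap-/- organoids against 65.5 RPKM in the Yap+/- library, and 18.8 RPKM with against 54.1 RPKM without doxycycline. The doxycycline-treated library stood far below the other 3, and the Yap-/- library was the highest. With induction Hopx was 2.87-fold lower (interval 2.72 to 3.03), and 2.78% of all genes at the floor had a lower log2 ratio. With loss of Yap it was 1.16-fold higher (interval 1.12 to 1.20), a smaller gap than the 1.21-fold between the Yap+/- and untreated YapTg libraries. In the GENCODE M21 annotation 27.2% of the exonic bases of Hopx lie in exons of the antisense gene Hopxos. Whether the counting used strand is not given in the sources used here, so reads of the pair cannot be told apart.

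Tert (ENSMUSG00000021611, chromosome 13), the catalytic subunit of telomerase, had the widest span of the 7. Its level was 6.15 RPKM in Yap-/- organoids against 3.97 RPKM in the Yap+/- library, and 0.791 RPKM with against 3.70 RPKM without doxycycline. The Yap+/- and untreated YapTg libraries were alike within counting error (ratio 1.08, interval 0.964 to 1.20), one library lay above them and the other below. Tert was 1.55-fold higher with loss of Yap (interval 1.42 to 1.69), and 1.77% of all genes at the floor had a higher log2 ratio. With induction it was 4.67-fold lower (interval 3.97 to 5.51). Other genes of telomerase and of the shelterin complex that caps telomeres stayed within 2-fold. Of 14 listed, 14 reached the floor in each pair and 0 passed 2-fold in either, with medians of 0.07 with loss and -0.04 with induction. The furthest apart with induction were Nop10, an RNA-binding subunit of telomerase, at 26.4 RPKM with and 42.4 RPKM without doxycycline, and the shelterin gene Terf2 at 3.99 RPKM with and 5.23 RPKM without. With loss they were Gar1 (14.9 RPKM in Yap-/- and 13.4 RPKM in Yap+/-) and again Nop10 (48.6 and 44.8 RPKM), both subunits of the same particle.

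Mex3a (ENSMUSG00000074480, chromosome 3) encodes an RNA-binding protein with a ubiquitin ligase domain. Its level was 1.27 RPKM in Yap-/- organoids against 1.10 RPKM in the Yap+/- library, and 0.656 RPKM with against 1.95 RPKM without doxycycline. The treated library was the lowest and the untreated YapTg library the highest of the 4. With induction Mex3a was 2.97-fold lower (interval 2.55 to 3.47), while the Yap+/- library was itself 1.78-fold lower than the untreated YapTg library (1.54 to 2.05). In the loss pair the ratio was 1.16 with an interval of 1.00 to 1.34, whose lower end lay just above equal levels. Of its paralogs Mex3c was far more abundant, at 42.0 RPKM with and 28.0 RPKM without doxycycline, and so higher where Mex3a was lower. Mex3d was at 4.23 RPKM with and 3.24 RPKM without the drug, and Mex3b stayed under 0.5 RPKM in every library. The exons of Mex3a share 82 bases with Mir1905, an miRNA gene on the other strand.

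MEX3A was described in mouse intestine as a brake on PPAR signalling, the nuclear receptors that sense fatty acids. A list of 12 MEX3 paralogs, PPAR receptors and PPAR target genes had 9 at the floor with induction, 1 of them 2-fold higher and 1 lower, with a median of -0.41. Pparg was at 17.8 RPKM with and 6.56 RPKM without doxycycline, 2.71-fold higher (interval 2.47 to 2.96). Ppara was at 4.15 RPKM with and 9.74 RPKM without, 2.35-fold lower (2.18 to 2.53). In the loss pair 10 reached the floor and 0 passed 2-fold, with a median of 0.04. Pparg was at 5.16 RPKM in Yap-/- organoids against 9.20 RPKM in the Yap+/- library.

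Lrig1 (ENSMUSG00000030029, chromosome 6), a transmembrane protein that holds back the EGF receptor and its relatives, was at 23.9 RPKM in Yap-/- organoids against 20.5 RPKM in the Yap+/- library, and at 16.6 RPKM with and 27.8 RPKM without doxycycline. The treated library was the lowest and the untreated YapTg library the highest. The difference with induction was 1.68-fold lower (interval 1.63 to 1.74), and the gap from Yap+/- to untreated YapTg organoids was 1.36-fold in the same direction. The list of its paralogs and of receptors it restrains had 7 of 8 genes at the floor. With induction 1 was 2-fold higher and 1 lower, with a median of 0.13. The paralog Lrig3 was at 2.79 RPKM with and 10.9 RPKM without doxycycline, 3.92-fold lower (interval 3.62 to 4.25), further apart than Lrig1. Egfr itself was at 8.09 RPKM with and 2.25 RPKM without, 3.59-fold higher (3.38 to 3.83). In Yap-/- against Yap+/- organoids 0 passed 2-fold and the median was -0.13, with the receptor genes Erbb2 at 18.3 RPKM in Yap-/- organoids against 22.7 RPKM in the Yap+/- library and Egfr at 1.54 RPKM and 1.96 RPKM. About 2.58% of the exonic bases of Lrig1 overlap those of Slc25a26 on the other strand.

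Prom1 (ENSMUSG00000029086, chromosome 5), the pentaspan membrane protein of protrusions also known as CD133, varied less. Its level was 21.4 RPKM in Yap-/- organoids against 20.2 RPKM in the Yap+/- library, and 15.5 RPKM with against 22.5 RPKM without doxycycline. The treated library stood apart below the other 3. With induction Prom1 was 1.45-fold lower (interval 1.39 to 1.51), and 15.6% of all genes at the floor had a lower log2 ratio. Antisense Gm16401, at 1.17 RPKM or less, covers 5.91% of the exonic bases of Prom1. The paralog Prom2 was near absent, at 0.0399 RPKM or less in every library.

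Cd44 (ENSMUSG00000005087, chromosome 2), the receptor for hyaluronan and a Wnt target in crypts, stood out in the untreated YapTg library. Its level was 8.25 RPKM in Yap-/- organoids against 7.39 RPKM in the Yap+/- library, and 8.19 RPKM with against 11.2 RPKM without doxycycline. That library stood above the rest, and the treated one lay between the Yap-/- and Yap+/- libraries. With induction Cd44 was 1.36-fold lower (interval 1.30 to 1.43), less than the 1.51-fold by which the Yap+/- library lay below the untreated YapTg library. The values cover the whole gene, so splice variants with extra exons are not resolved. Of 12 listed genes for CD44 linkers, ligands, hyaluronan enzymes and splicing regulators, 6 reached the floor. With induction 2 were 2-fold higher and 0 lower, with a median of 0.11. Ezr, whose product ezrin ties CD44 and other membrane proteins to actin, was at 279 RPKM with and 96.4 RPKM without doxycycline. Slc7a11, the cystine carrier that a variant of CD44 stabilises, was at 4.40 RPKM with and 1.10 RPKM without. The same genes were furthest apart with loss of Yap. Slc7a11 was at 0.595 RPKM in Yap-/- organoids against 1.48 RPKM in the Yap+/- library, and Ezr at 87.4 RPKM and 109 RPKM. Neither passed the 2-fold rule, and the median was -0.06. As a ratio of RPKM Slc7a11 was 2.48-fold lower (interval 2.22 to 2.78), and it missed the rule through the pseudocount. The splicing regulator genes Esrp1 and Esrp2 were within 1.11-fold in both pairs.

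Bmi1 (ENSMUSG00000026739, chromosome 2), a subunit of Polycomb repressive complex 1, had the narrowest span of the 7. Its level was 4.34 RPKM in Yap-/- organoids against 4.58 RPKM in the Yap+/- library, and 5.77 RPKM with against 5.14 RPKM without doxycycline. Both YapTg libraries lay above both others. The ratio of 0.948 with loss of Yap had an interval of 0.871 to 1.03, which includes equal levels, and the ratio with induction was 1.12 (interval 1.04 to 1.22). Other subunits of the complex also stayed within 2-fold. Of 16 listed, 15 reached the floor, 0 passed 2-fold in either pair, and the medians were 0.12 with loss and -0.08 with induction. The furthest apart were Pcgf5, a relative of Bmi1 in variant complexes, at 11.2 RPKM with and 6.32 RPKM without doxycycline, and Cbx2, a chromodomain subunit, at 2.22 RPKM with and 3.68 RPKM without. In the loss pair they were Cbx7, another chromodomain subunit, at 4.02 RPKM in Yap-/- organoids against 2.41 RPKM in the Yap+/- library, and Phc1 at 2.10 RPKM and 1.62 RPKM.

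Inhibitors of cyclin-dependent kinases were listed because Bmi1 is known to repress Cdkn2a and because quiescence is part of the reserve cell concept. Cdkn2a was below the floor in all 4 libraries, at 0.0379 RPKM in Yap-/- organoids against 0.165 RPKM in the Yap+/- library and at 0.159 RPKM with and 0.666 RPKM without doxycycline. Of 7 inhibitors 5 reached the floor. With induction 1 was 2-fold higher and 0 lower (median 0.06), and with loss 0 passed 2-fold (median 0.03). Cdkn1c, which encodes the inhibitor p57 that has been used to mark quiescent progenitors, was at 24.2 RPKM with and 1.67 RPKM without doxycycline, 14.5-fold higher (interval 12.3 to 17.2). Its level was 4.46 RPKM in Yap-/- organoids against 3.09 RPKM in the Yap+/- library. Cdkn1a, the p53 target p21, was at 87.8 RPKM with and 51.8 RPKM without doxycycline, and at 64.8 RPKM in Yap-/- organoids against 90.6 RPKM in the Yap+/- library. Cell cycle genes were close in both pairs, with 0 of 10 past 2-fold and medians of 0.08 with loss and -0.24 with induction, where 10 of 10 lay below 0. Furthest apart were Aurkb at 13.8 RPKM with and 18.4 RPKM without doxycycline and Top2a at 28.8 RPKM and 36.5 RPKM, and with loss Mcm6 at 27.5 RPKM in Yap-/- organoids against 23.1 RPKM in the Yap+/- library and Plk1 at 28.8 RPKM and 25.0 RPKM. Between Yap+/- and untreated YapTg organoids the median of the cell cycle genes was -0.55, further from 0 than with induction, and again 10 of 10 lay below 0.

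**Figure D3:**
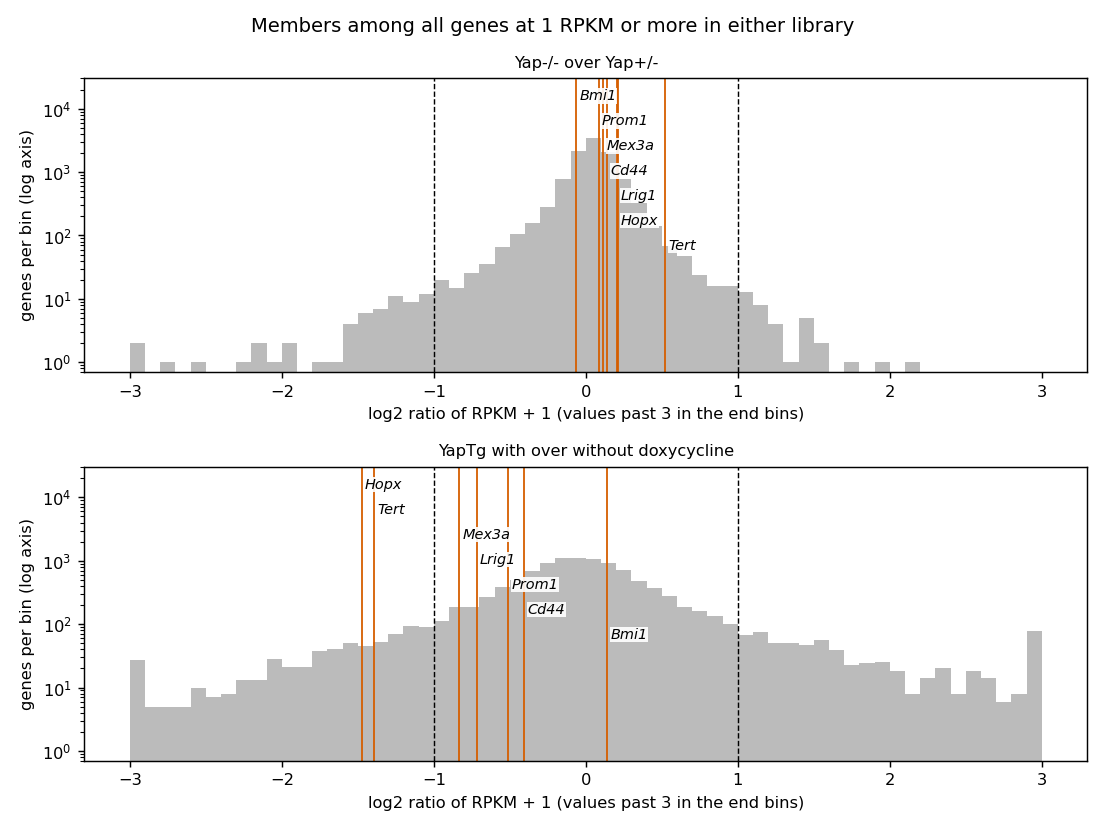
Number of genes (vertical log axis) by log2 ratio of RPKM plus 1 (horizontal axis) among genes that reached the floor of 1 RPKM in the pair, with the 7 members as orange lines and 2-fold as dashed lines. Hopx and Tert lie beyond the dashed line on the lower side with doxycycline, and with loss of Yap Tert is the member furthest from the bulk of genes.

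The loss and induction pairs share no library, and their ratios had opposite signs for all 7 members. Across 10533 genes at the floor in both pairs this was so for 64.4%. The direction held by 6 members, above 0 with loss and below 0 with induction, was that of 42.9% of these genes. Bmi1 had the other order, as did 21.5%. Its interval with loss of Yap (0.871 to 1.03) included equal levels, so its sign there is not settled by the reads. The doxycycline-treated library was the lowest of the 4 for 5 members, and for 36.6% of 11285 genes that reached the floor in any library. These signs say nothing of size, and 6 of the 7 ratios in the loss pair lay between 0.948 and 1.16.

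Lgr5-type crypt base markers were set beside the members. Of 14 such genes 13 reached the floor, and with induction 7 of these were 2-fold lower and 0 higher, with a median of -1.28 against -0.72 for the members. Lgr5 was 6.76-fold lower (interval 6.21 to 7.36), at 0.910 RPKM with and 6.15 RPKM without doxycycline. The secreted glycoprotein gene Olfm4 was 19.3-fold and the water channel gene Aqp4 7.14-fold lower, so each of these 3 was further apart than Tert, the member with the largest such ratio. Of the 13, 12 lay below 0 with induction and 1 above. The 1 above was Cdk6, at 12.7 RPKM with and 6.12 RPKM without doxycycline. As a ratio of RPKM it was 2.08-fold higher (interval 1.94 to 2.23), and it missed the rule through the pseudocount. In the loss pair 13 of 13 were above 0, 1 of them 2-fold higher, with a median of 0.29 against 0.14 for the members. Olfm4 was at 501 RPKM in Yap-/- organoids against 244 RPKM in the Yap+/- library, and the guidance receptor gene Ephb3 at 7.42 RPKM and 4.94 RPKM. In the yardstick pair 13 of 13 were below 0, with a median of -0.62. Lgr5 differed 3.23-fold there, with the untreated YapTg library, the base of the induction ratios, the higher one. With 1 library per group the difference between these 14 genes and the 7 members was not tested.

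**Figure D4:**
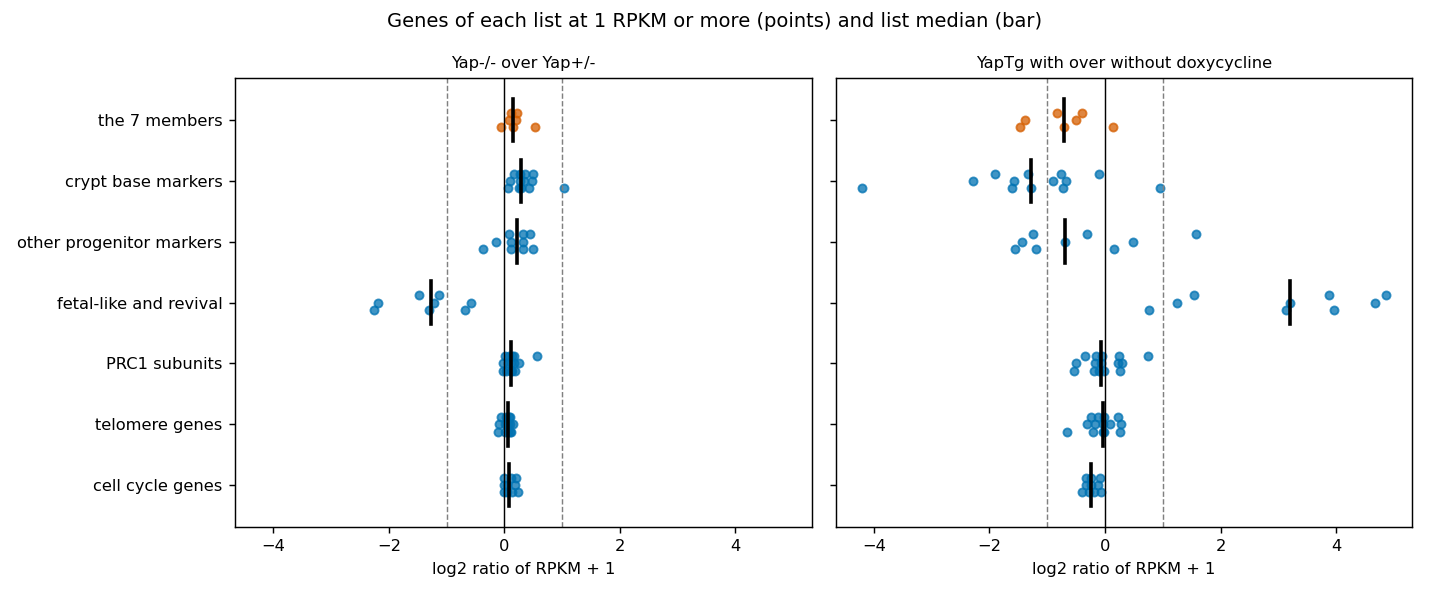
Log2 ratio of RPKM plus 1 (horizontal axis) for genes at the floor in each list, 1 point per gene, with the list median as a black bar, a solid line at 0 and dashed lines at 2-fold. The members (orange) have medians of 0.14 with loss of Yap and -0.72 with induction, between the crypt base markers and the Polycomb, telomere and cell cycle lists with induction.

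Other genes proposed to mark stem or facultative progenitor cells were mixed. With induction 9 of 12 reached the floor, 4 were 2-fold lower and 1 higher, with a median of -0.69. The keratin gene Krt19 was at 2011 RPKM with and 676 RPKM without doxycycline, 2.97-fold higher (interval 2.95 to 3.00), and the transcription factor gene Sox4 at 4.40 RPKM and 14.9 RPKM, 3.40-fold lower (3.20 to 3.61). In Yap-/- against Yap+/- organoids 0 of 10 passed 2-fold, with a median of 0.22. Msi1, an RNA-binding protein, was at 3.87 RPKM in Yap-/- organoids against 2.45 RPKM in the Yap+/- library, and the surface glycoprotein gene Cd24a at 151 RPKM and 111 RPKM. Fetal-like and revival markers, which appear in regenerating epithelium, went the other way from all members but Bmi1 in both pairs. With induction 8 of 9 at the floor were 2-fold higher and 0 lower (median 3.19), Msln by 34.4-fold and Ly6a by 27.5-fold. With loss 6 of 8 were 2-fold lower and 0 higher (median -1.27), Msln by 18.0-fold and Il1rn by 7.52-fold. These folds are plain ratios of RPKM, which low values enlarge. On the log2 scale of RPKM plus 1 the lowest ratio in this list with loss was -2.26. Of the 11 listed genes 6 reached the floor in Yap-/- and 8 in Yap+/- organoids.

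Markers of enterocytes, enteroendocrine, goblet and Paneth cells had lower sums with doxycycline, as did the members, while the sums for tuft cells were nearly alike. The part of these markers in the members' ratios was not tested. With induction the summed level of 7 enterocyte markers was 1383 RPKM with and 3927 RPKM without doxycycline, and 4 of 7 were 2-fold lower. For 11 enteroendocrine markers the sums were 77.7 RPKM with and 163 RPKM without the drug, with 5 of 8 at the floor 2-fold lower, and 0 of the 11 were listed at 0. For 7 goblet cell markers they were 675 RPKM and 2655 RPKM, with 7 of 7 lower, and for 6 Paneth cell markers 7912 RPKM and 12010 RPKM, with 1 of 6 lower. Tuft cell markers summed to 7.28 RPKM with and 7.31 RPKM without doxycycline, with 0 of 3 at the floor past 2-fold and Il25 listed at 0 in both. With loss of Yap the sums were 8770 RPKM in Yap-/- against 6303 RPKM in Yap+/- organoids for enterocyte markers, 326 and 284 RPKM for enteroendocrine, 3429 and 2608 RPKM for goblet, 9787 and 4848 RPKM for Paneth and 29.7 and 20.7 RPKM for tuft cell markers. Of the Paneth cell markers 4 of 6 were 2-fold higher in Yap-/- organoids, and 0 markers of the other 4 types passed 2-fold in either direction. The enterocyte markers were mixed there, with 4 above and 3 below 0. The Yap+/- library itself stood apart from the untreated YapTg library, with median log2 ratios of RPKM plus 1 of -1.23 for Paneth cell markers, 4 of 6 of them 2-fold lower, 0.78 for enterocyte markers and 0.89 for tuft cell markers. Each of those last 2 lists had 1 gene 2-fold higher.

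The genes whose levels over the 4 libraries were most like those of a member were sought for members that reached 5 RPKM and spanned at least 1 on the log2 scale of RPKM plus 1, which were Hopx and Tert. Among 7334 other genes that reached 5 RPKM in some library, likeness was the root mean square difference of centred log2 values. Nearest to Hopx were the sterol transporter gene Abcg8 (0.03), the amino acid transporter subunit gene Slc3a1 (0.04) and the glyoxalase gene Hagh (0.04). Abcg8 was at 39.5 RPKM in Yap-/- organoids against 33.0 RPKM in the Yap+/- library, and at 9.34 RPKM with and 28.9 RPKM without doxycycline. Nearest to Tert were the cytochrome P450 gene Cyp2b9 (0.05), the aromatic amino acid transporter gene Slc16a10 (0.05) and the claudin gene Cldn15 (0.06). Slc16a10 was at 22.8 RPKM in Yap-/- organoids against 15.9 RPKM in the Yap+/- library, and at 4.56 RPKM with and 14.8 RPKM without doxycycline. With 4 libraries many genes have near-equal profiles, and the order of the nearest is a description.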

How the data were processed

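Total RNA of 4 organoid cultures was sequenced after TruSeq RNA library preparation, per the labels' protocols. The submitters' processing notes name CASAVA 1.8, FastQC, TopHat 1.4.1 and the mm9 build. How reads were counted, on which annotation release and with which strand setting is not given in the sources used here. Values were deposited without a named unit and were identified as RPKM from the numbers themselves; the deposited RPKM values were used unchanged.

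Library totals were solved from GENCODE M21 exon lengths, and whole reads (within 0.002 of a read, plus rounding) were recovered for 17378 of 17378 genes above 0. Where the annotated length gave whole reads it was taken, otherwise the shortest that did, which keeps reads few and intervals wide; for Tert and Prom1 a length and read number 2 times as large would also work. Ratios have exact conditional binomial 95% intervals and levels exact Poisson ones, both covering counting error only. Log2 ratios are of RPKM plus 1. Calls need 2-fold and 1 RPKM in the higher library. There is 1 library per group, so no test was made. The steps were tested on simulated data. Python 3.11.15, scipy 1.17.1 and pandas 2.3.3 were used.

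Beside all 7 members and Yap1, the text names by rule the 2 genes furthest from 0 per list that is not a cell type list and main pair, Lgr5, and the 3 genes most like a member. A gene that the rule also names is not reported here. Mex3b, Mex3c, Mex3d, Esrp1, Esrp2, Prom2, Cdkn2a, Cdk6, overlapping genes and single cell type markers were named after their values were seen. The members and lists were chosen with earlier results of these data known. Alternatives were other pseudocounts, floors, scalings, thresholds, the counting interval as a call and the set without its furthest member.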

Additional observations from a re-analysis of the deposited data

How the results depend on the processing

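The signs of all 21 member ratios (7 members, 3 pairs) were kept under both scalings. Under pseudocounts of 0.1 and 5 they could not change, since adding the same number to both levels keeps their order. With induction, the count of members lower (2 in the report) was 1 with a pseudocount of 5, 1 with a floor of 5 RPKM, 1 without the furthest member, 0 at 4-fold and 4 at 1.5-fold. The member median of -0.72 was -0.42, -0.51 and -0.61 in the first 3 of these settings. At the floor of 5 RPKM Tert and Mex3a were left out, since neither reached it in this pair. Of 7814 genes at that floor 524 were higher and 512 lower. With a pseudocount of 0.1 the count of members lower was 3. With the counting interval as the call, 6 members were lower and 1 higher with induction, 6 were higher with loss, and 5 were lower and 1 higher between Yap+/- and untreated YapTg organoids. The median of -0.15 in that last pair was -0.023 with median-ratio and -0.048 with upper-quartile scaling. Tert ranged from -2.09 to -0.59 and Mex3a from -1.44 to -0.30 with induction, by pseudocount. By the same choice, Tert in the loss pair (0.52 in the report) ranged from 0.31 to 0.62, and Mex3a between Yap+/- and untreated YapTg organoids (-0.49) from -0.78 to -0.19. Counts over all genes, higher and lower, moved from 36 and 61 with loss to 66 and 112 at a pseudocount of 0.1, 20 and 19 at 5, 1 and 8 at 4-fold and 144 and 168 at 1.5-fold. With induction they moved from 650 and 644 to 838 and 915 at a pseudocount of 0.1, 350 and 323 at 5, 191 and 121 at 4-fold and 1267 and 1447 at 1.5-fold. Between Yap+/- and untreated YapTg organoids, 121 and 79 became 198 and 213, 56 and 43, 15 and 20, and 369 and 512 at pseudocounts of 0.1 and 5, 4-fold and 1.5-fold. No paired analysis was possible because each group has 1 library. Depth limits Mex3a and Tert most, with 263 and 204 reads in the doxycycline-treated library.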
